A study of Mus musculus with 36 samples.

Results

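The identity of heart muscle cells is set by a small group of transcription factors, proteins that bind DNA and switch genes on or off. The 10 genes described here are Nkx2-5, a homeodomain factor, Gata4 and Gata6 of the GATA zinc finger family, the T-box factors Tbx5 and Tbx20, the basic helix-loop-helix factor Hand2, and the MADS-box factors Mef2a, Mef2c, Mef2d and Srf. They were chosen by name, as 10 of the 12626 genes tested. The array carries 30 probe sets annotated to them, each a group of short probes for a transcript, and 29 passed the filter on dim probe sets. Each gene is given by its probe set with the highest mean over the 36 arrays, which passed for all 10. A signal depends on the probe set, so levels were compared between groups and not between genes.

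The study switched on different MAP kinase pathways in the adult mouse heart and measured left ventricular RNA on Affymetrix arrays. HRas-v12 is a constantly active Ras protein, MKK3bE an active kinase upstream of p38, and MKK7D an active kinase upstream of JNK. Per the labels, each transgene was floxed and stood behind the alpha-MHC promoter, which works in heart muscle cells, and the mice also carried Mer-Cre-Mer, a tamoxifen-activated Cre recombinase behind the same promoter. The lines had a C57black background. All mice, non-transgenic littermates among them, were injected with tamoxifen (20 mg/kg) daily for 3 days when 12 weeks old, so the agent is shared by every group while Cre is not.

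The HRas-v12 line had 2 female and 3 male early arrays and 3 arrays of each sex late, early being 4 to 7 days and late 2 to 4 weeks after the first injection. The MKK3bE line had 2 early arrays, both female, and 5 late ones from 2 females and 3 males. Both lines were set against the same 3 female and 3 male control arrays, whose labels give no time point. The MKK7D line had 3 female arrays at each time, each time with 3 female controls of its own. Replicate numbers in the labels do not state whether each array is another animal. The p-values therefore reflect the spread between arrays, which may be technical.

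Nkx2-5, GATA4, TBX5, HAND2, MEF2 and SRF proteins work in combination: they bind each other and neighbouring DNA sites, and they turn on genes of the contractile apparatus, of calcium handling and of electrical coupling in the developing heart. Several of them stay on in the adult heart, where MEF2, SRF and GATA4 also take part in the growth response to overload. MAP kinases are known to phosphorylate some of these proteins, among them MEF2A, MEF2C and GATA4. An array measures the RNA of a factor and not the amount or the phosphorylation of its protein. In bulk ventricular RNA, fewer cells of a type and less RNA per cell cannot be told apart.

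Of the 36 arrays, 6 went against their labels in Esr1, whose probe set could also see the Mer part of the driver, or in sex-linked genes. Esr1 signal was 294 to 832 in 5 of the 6 shared controls and 7943 in control female replicate 2, and an array was held to its label against that highest value. It was 688, 2915 and 1327 in the arrays labelled HRas-v12 female early replicate 3, male late replicate 1 and male late replicate 3, and 106402 and 91291 in those labelled MKK7D control late replicates 8 and 9. In the array labelled as replicate 1 of the early MKK7D control females, the sex-linked signals were those of males. The 2 late males among these arrays lay above the other 5 shared controls. The HRas-v12 and MKK7D changes that the text turns on are given with and without the 6 doubtful arrays, the lists of other genes as counts. That fit leaves 1 late HRas-v12 male, 1 early HRas-v12 female and 1 late MKK7D control. Map2k3, the mouse gene of MKK3, was not called in the MKK3bE line (log2 change 0.14 early with limma adjusted p = 0.703, and 0.10 late with 0.687), although a probe set outside the transgene's part of the gene could not see it. Heart muscle cell markers were bright, with Myh6 between 119266 and 246366 on all arrays. Atrial markers varied: Myl7 ran from 271 to 49696 and the summed atrial signal of the control females from 8134 to 234983.

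Entries of 7 of the 10 genes were used from the promoter table, which is from RefSeq with the GRCm38.p6 build. This count does not show that the table lacked the other genes. Windows of 250 bases before to 50 bases after the transcript start are shown for the 3 genes that changed in a transgenic line, Hand2, Mef2d and Nkx2-5, and for Srf and Mef2a, in whose windows the binding motif of their own family was found. They are written from 5′ to 3′ on the strand of the gene. Capitals mark every match, on either strand, to the motifs searched: the CArG box of SRF, the MEF2 box, GATAA, the E-box CANNTG of helix-loop-helix factors, the NKX2 motif AAGTG, the T-box motif GGTGTG, the Ets core CCGGAA and the GC box GGGCGG.
Hand2, chr8:57320733-57321032, plus strand: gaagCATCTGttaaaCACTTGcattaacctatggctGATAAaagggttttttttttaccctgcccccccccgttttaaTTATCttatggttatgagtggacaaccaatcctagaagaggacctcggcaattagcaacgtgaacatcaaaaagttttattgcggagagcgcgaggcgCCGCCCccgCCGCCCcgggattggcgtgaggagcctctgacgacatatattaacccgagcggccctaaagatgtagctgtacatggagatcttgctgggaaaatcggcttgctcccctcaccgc
Mef2d, chr3:88142122-88142421, plus strand: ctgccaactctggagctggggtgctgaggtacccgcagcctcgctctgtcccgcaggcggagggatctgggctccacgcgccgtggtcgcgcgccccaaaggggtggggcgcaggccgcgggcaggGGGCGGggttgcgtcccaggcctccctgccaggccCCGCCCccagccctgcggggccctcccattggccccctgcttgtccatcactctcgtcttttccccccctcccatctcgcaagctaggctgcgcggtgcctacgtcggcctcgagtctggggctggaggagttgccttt
Nkx2-5, chr17:26841516-26841815, minus strand: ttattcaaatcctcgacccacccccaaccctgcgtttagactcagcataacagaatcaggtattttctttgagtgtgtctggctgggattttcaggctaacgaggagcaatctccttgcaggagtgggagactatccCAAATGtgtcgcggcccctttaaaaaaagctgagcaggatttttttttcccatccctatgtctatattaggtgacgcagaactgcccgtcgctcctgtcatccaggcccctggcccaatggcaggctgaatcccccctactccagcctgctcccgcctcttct
Srf, chr17:46556113-46556412, minus strand: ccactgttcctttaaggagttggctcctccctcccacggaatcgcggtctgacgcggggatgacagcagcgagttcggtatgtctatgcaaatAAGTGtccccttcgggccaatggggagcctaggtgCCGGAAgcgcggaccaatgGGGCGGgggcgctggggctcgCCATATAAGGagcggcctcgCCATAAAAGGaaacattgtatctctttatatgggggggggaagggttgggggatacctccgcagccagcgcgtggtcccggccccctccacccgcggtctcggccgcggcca
Mef2a, chr7:67372809-67373108, minus strand: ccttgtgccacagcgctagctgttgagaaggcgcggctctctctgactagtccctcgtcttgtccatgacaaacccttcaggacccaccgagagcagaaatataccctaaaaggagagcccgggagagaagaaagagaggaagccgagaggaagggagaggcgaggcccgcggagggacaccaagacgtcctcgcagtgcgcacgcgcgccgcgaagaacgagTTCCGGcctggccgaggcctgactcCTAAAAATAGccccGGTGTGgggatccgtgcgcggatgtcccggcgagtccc

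The Srf window held 2 CArG boxes, found in 1.63% of the 32851 promoter windows of the table, at bases 169 to 178 and 189 to 198 counted from the left. An Ets core, present in 14.9% of windows, an NKX2 motif (46.4%) and a GC box (35.7%) lay upstream of them. The Mef2a window held a MEF2 box, present in 3.19% of windows, across the transcript start at bases 249 to 258, with an Ets core before it and a T-box motif (19.0% of windows) after it. The Hand2 window held 2 GATAA motifs, a motif present in 25.4% of windows, 2 E-boxes (72.3%) of which 1 overlapped an NKX2 motif, and 2 GC boxes. The Mef2d window held 2 GC boxes, and the Nkx2-5 window 1 E-box. These matches describe letters in a short window and are no evidence of binding.

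Few of the factors differed detectably from their controls in the 3 lines, and by the brightest probe sets every factor that passed the test against control was lower. Hand2 and Mef2d fell in early HRas-v12 hearts, Hand2 fell in late HRas-v12 hearts, and Nkx2-5 fell in early MKK7D hearts. In early HRas-v12 hearts 2 of the 10 factors were called, both lower, where 33.8% of all genes were called and 18.7% called lower. The median size of change was 0.19 on the log2 scale for the 10 factors and 0.29 for all genes. In late HRas-v12 hearts 1 of 10 was called, lower, against 9.52% of all genes called and 4.66% called lower. None of 10 was called in early MKK3bE hearts, where 6.26% of all genes were, and none in late MKK3bE hearts, where 10.4% were (limma, with 4 and 2 factors at an unadjusted p under 0.05). In early MKK7D hearts 1 of 10 was called, lower, against 0.135% of all genes called and 0.0475% called lower. In late MKK7D hearts none was called, where the share of all genes called was 0% (limma, with 1 factor and 643 genes at an unadjusted p under 0.05). A gene was called at an adjusted p under 0.05.

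**Figure D1:**
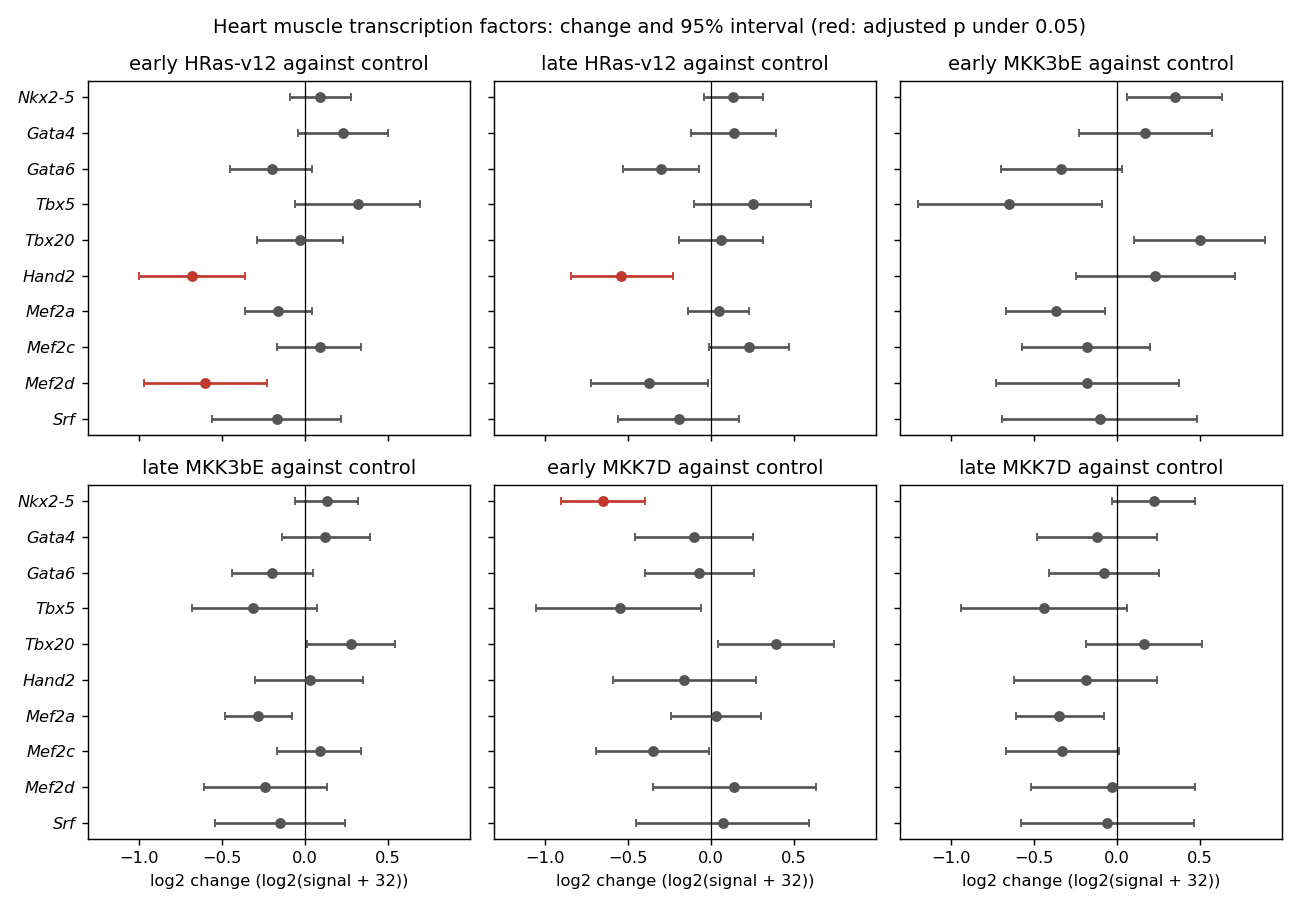
Change of each factor against its control on the log2(signal + 32) scale, with a panel per line and time. Points are limma estimates and bars 95% intervals; red marks an adjusted p under 0.05, which is reached by Hand2 and Mef2d in early HRas-v12, Hand2 in late HRas-v12 and Nkx2-5 in early MKK7D hearts.

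Nkx2-5, needed for the forming heart tube and for the conduction system, fell in early MKK7D hearts. Its signal was 8368, 7856 and 6606 in these hearts, against 12235, 10518 and 13075 in their early controls. All 3 MKK7D arrays lay below all 3 control arrays. The fall was 1.57-fold (log2 change -0.65, SE 0.12, 95% interval -0.90 to -0.40, limma adjusted p = 0.0204). In late MKK7D hearts the signal was 9696, 8227 and 8755, against 7065, 7569 and 8213 in the late controls, so each transgenic array lay above each control array. The 2 lowest of these controls, replicates 8 and 9, are doubtful, and the remaining one is the highest. That difference did not pass the test (log2 change 0.22, 95% interval -0.03 to 0.47, adjusted p = 0.999), and it was 0.11 without the 6 doubtful arrays (0.85).

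The early fall of Nkx2-5 was called in 9 of 13 alternative fits (adjusted p from 0.00549 to 0.136). It was lost without control replicate 1 (-0.63, adjusted p = 0.133), control replicate 3 (-0.58, 0.136), transgenic replicate 6 (-0.68, 0.0595) or transgenic replicate 7 (-0.55, 0.128), while without the 6 doubtful arrays it was -0.63 (0.0362). None of the 10 heart muscle cell markers was called in the early MKK7D comparison, where only 0.135% of all genes were. Their summed signal was 1195529 to 1387324 in early MKK7D hearts and 1163425 to 1482161 in the early controls. Nkx2-5 has 1 probe set on the array, so no other reading of the gene was at hand.

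In the HRas-v12 and MKK3bE lines Nkx2-5 did not pass the test. It averaged 11559 ± 2042 in early HRas-v12 hearts (SD, n = 5), 12073 ± 1161 in late ones (SD, n = 6) and 11024 ± 1190 in the shared controls (SD, n = 6), with log2 changes of 0.09 early and 0.13 late (limma adjusted p = 0.458 and 0.32), and of 0.10 and 0.13 without the doubtful arrays. Both early MKK3bE arrays, at 12700 and 14374, lay above the 3 control females, at 10097 to 11656 (log2 change 0.35, 95% interval 0.06 to 0.63, adjusted p = 0.125). Over the 13 groups the mean signal of Nkx2-5 ran from 13537 in early MKK3bE females down to 7610 in early MKK7D females. The 3 lowest groups were late MKK7D at 8892, its late control at 7616, with both doubtful arrays in it, and early MKK7D, and the early MKK7D control stood at 11943.

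**Figure D2:**
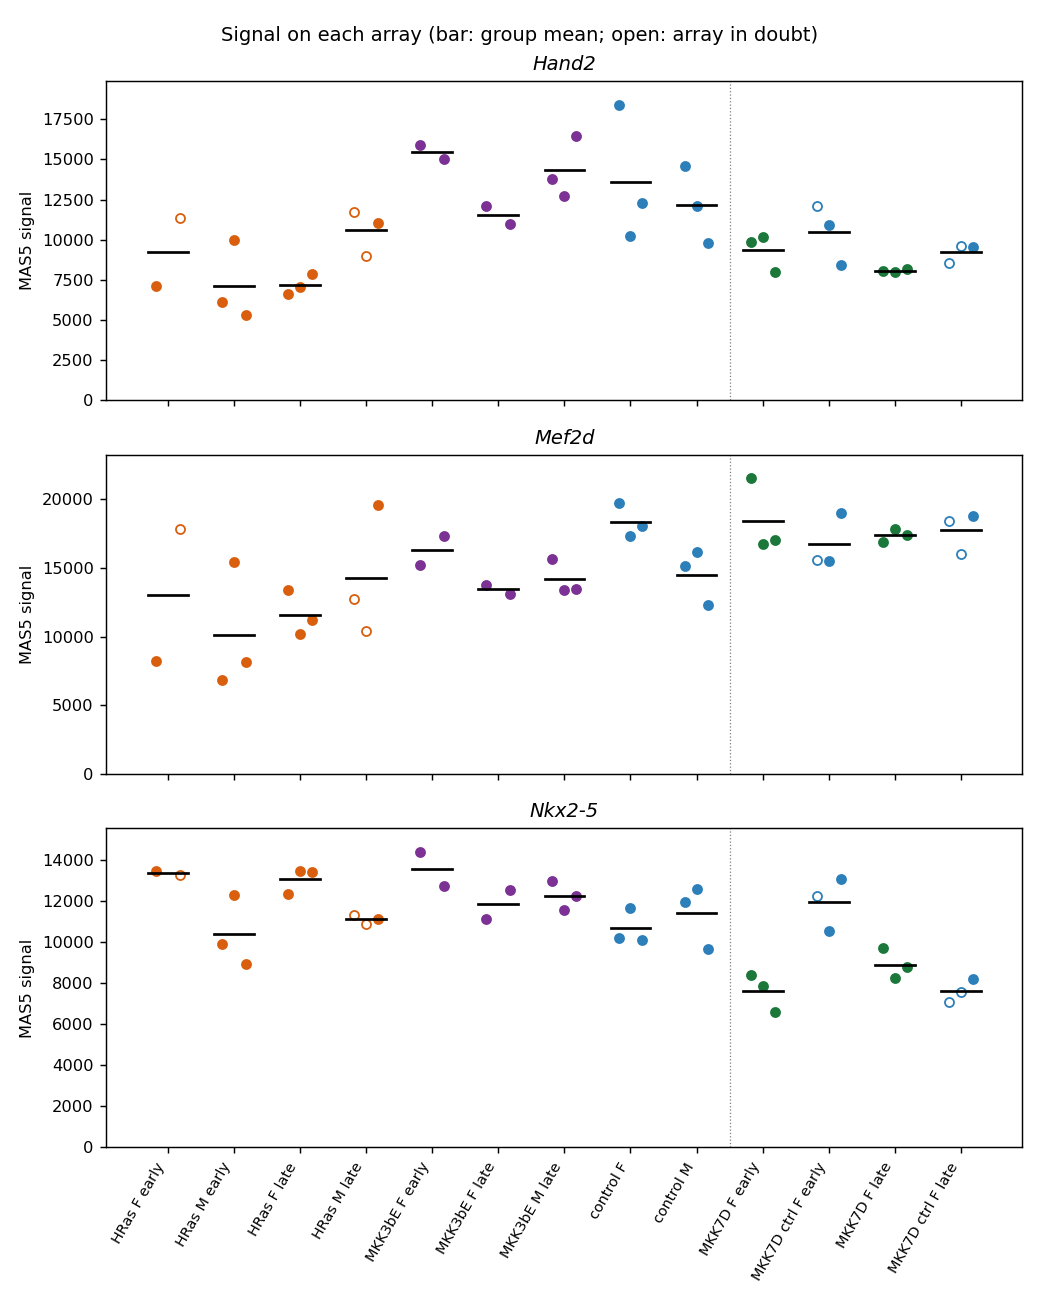
Signal of Hand2, Mef2d and Nkx2-5 on each array, by group. Bars are group means and open points the 6 arrays that went against their labels; the MKK7D line and its own controls stand right of the dotted line. The early MKK7D points of Nkx2-5 lie between 6606 and 8368, and the early control points between 10518 and 13075.

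Gata4 and Gata6 open closed chromatin and act with Nkx2-5 and Tbx5 on genes such as Nppa. The brightest probe set of Gata4 did not pass the test in any line. It averaged 12727 ± 2989 in early HRas-v12 hearts (SD, n = 5), 11539 ± 818 in late ones (SD, n = 6) and 10570 ± 1596 in the shared controls (SD, n = 6), with log2 changes of 0.23 (95% interval -0.04 to 0.50, limma adjusted p = 0.178) and 0.14 (-0.12 to 0.39, 0.49). In MKK3bE hearts the changes were 0.17 early and 0.12 late, and in MKK7D hearts -0.10 early and -0.12 late. The HRas-v12 changes were 0.21 early and 0.13 late without the doubtful arrays, and the MKK7D changes -0.09 early and -0.23 late.

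The second Gata4 probe set gave larger changes. It was higher by 0.63 on the log2 scale in early HRas-v12 hearts (SE 0.20, limma adjusted p = 0.0171 over all 27022 probe sets above the filter), by 0.63 in late HRas-v12 hearts (SE 0.19, 0.0312) and by 0.67 in late MKK3bE hearts (SE 0.20, 0.0374). In early MKK3bE hearts it stood at 0.85 without passing (SE 0.29, 0.0907), and in MKK7D hearts at -0.04 early and -0.03 late. Without the doubtful arrays the HRas-v12 changes of that probe set were 0.77 early (0.0143) and 0.59 late (0.239), so the late call was lost. With the mean of both probe sets Gata4 was called in early HRas-v12 hearts (0.43, adjusted p = 0.0276).

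Gata6 stood below control in all 6 comparisons and was called in none. Its late MKK7D change of -0.08 was 0.07 without the doubtful arrays. It averaged 13878 ± 1373 in early HRas-v12 hearts (SD, n = 5), 13232 ± 3042 in late ones (SD, n = 6) and 15984 ± 1190 in the shared controls (SD, n = 6). Its log2 change was -0.20 early (limma adjusted p = 0.201) and -0.30 late (95% interval -0.53 to -0.07, 0.0865). In late HRas-v12 hearts 5 of 6 arrays lay below the mean of their sex-matched controls, and over 19 alternative fits the change ran from -0.39 to -0.12. It passed the test in 2 of them, without female late replicate 2 (-0.36, adjusted p = 0.0471) and without male late replicate 4 (-0.39, 0.0164). Without the 6 doubtful arrays, 2 late males among them, it was -0.12 (0.693). Both early MKK3bE arrays, at 12854 and 13840, lay below the 3 control females, at 15699 to 17708 (log2 change -0.34, 95% interval -0.70 to 0.03, adjusted p = 0.261). Further Gata6 probe sets ran from -0.56 to 0.22 across the 6 comparisons.

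Tbx5, the factor whose loss causes heart and hand malformations in people, had a median coefficient of variation within groups of 17.6%, the highest of the 10 factors, and passed no test. Its signal in early HRas-v12 hearts was 2087 and 2180 in females and 2475, 3378 and 2574 in males, against 1971, 1879 and 1995 in control females and 1770, 2268 and 1862 in control males. All 5 arrays lay above the mean of their sex-matched controls, and within each sex the HRas-v12 arrays lay above all controls. The change was 0.32 on the log2 scale (95% interval -0.06 to 0.69, limma adjusted p = 0.19), and 0.30 without the doubtful arrays (0.177). In early MKK3bE hearts it was 1080 and 1408, below the 3 control females (log2 change -0.65, 95% interval -1.20 to -0.09, adjusted p = 0.15). In early MKK7D hearts it was 1426, 1553 and 1120, against 1782, 1935 and 2333 in their controls, also without overlap (log2 change -0.55, 95% interval -1.05 to -0.06, adjusted p = 0.403). Without the doubtful arrays the MKK7D changes were -0.64 early (0.206) and -0.99 late (0.0549), the late one beside -0.44 with them. The second Tbx5 probe set stood at 0.26 in early MKK3bE and at -1.28 in early MKK7D hearts and was called in neither.

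Tbx20, which holds chamber muscle genes on and is needed for adult heart function, stood above control in MKK3bE and early MKK7D hearts without passing the test. Its signal was 26013 and 30822 in early MKK3bE hearts, above the 18199 to 23034 of the control females (log2 change 0.50, 95% interval 0.10 to 0.89, limma adjusted p = 0.117). All 5 late MKK3bE arrays lay above the mean of their sex-matched controls, with overlapping ranges (0.28, 95% interval 0.01 to 0.54, adjusted p = 0.168). In early MKK7D hearts the signal ran from 22754 to 25566, against 16342 to 21098 in their controls (0.39, 95% interval 0.04 to 0.74, adjusted p = 0.407). In late MKK7D hearts the change was 0.16 (adjusted p = 0.999). It was -0.08 without late control replicate 10, the one late control not in doubt, and 0.65 without the doubtful arrays (0.0828). In HRas-v12 hearts the change was -0.03 early and 0.06 late, and 0.06 and 0.09 without the doubtful arrays. The early MKK3bE change passed without the 6 doubtful arrays (0.50, adjusted p = 0.04). No MKK3bE array and no shared control was among those 6. That fit thus differed in the spread estimated over all groups and in the adjustment over all genes. The 2 further Tbx20 probe sets stood higher in HRas-v12 hearts, at 0.25 and 0.41 early and 0.56 and 0.69 late. They stood at 0.51 and 0.84 in early and 0.52 and 0.84 in late MKK3bE hearts, and at 0.15 to 0.40 in MKK7D hearts. None was called with all arrays. Without the doubtful arrays they were 0.51 and 0.76 in early and 0.35 and 0.55 in late HRas-v12 hearts. In that fit 1 of them passed in late MKK3bE hearts (0.84, limma adjusted p = 0.0127).

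**Figure D3:**
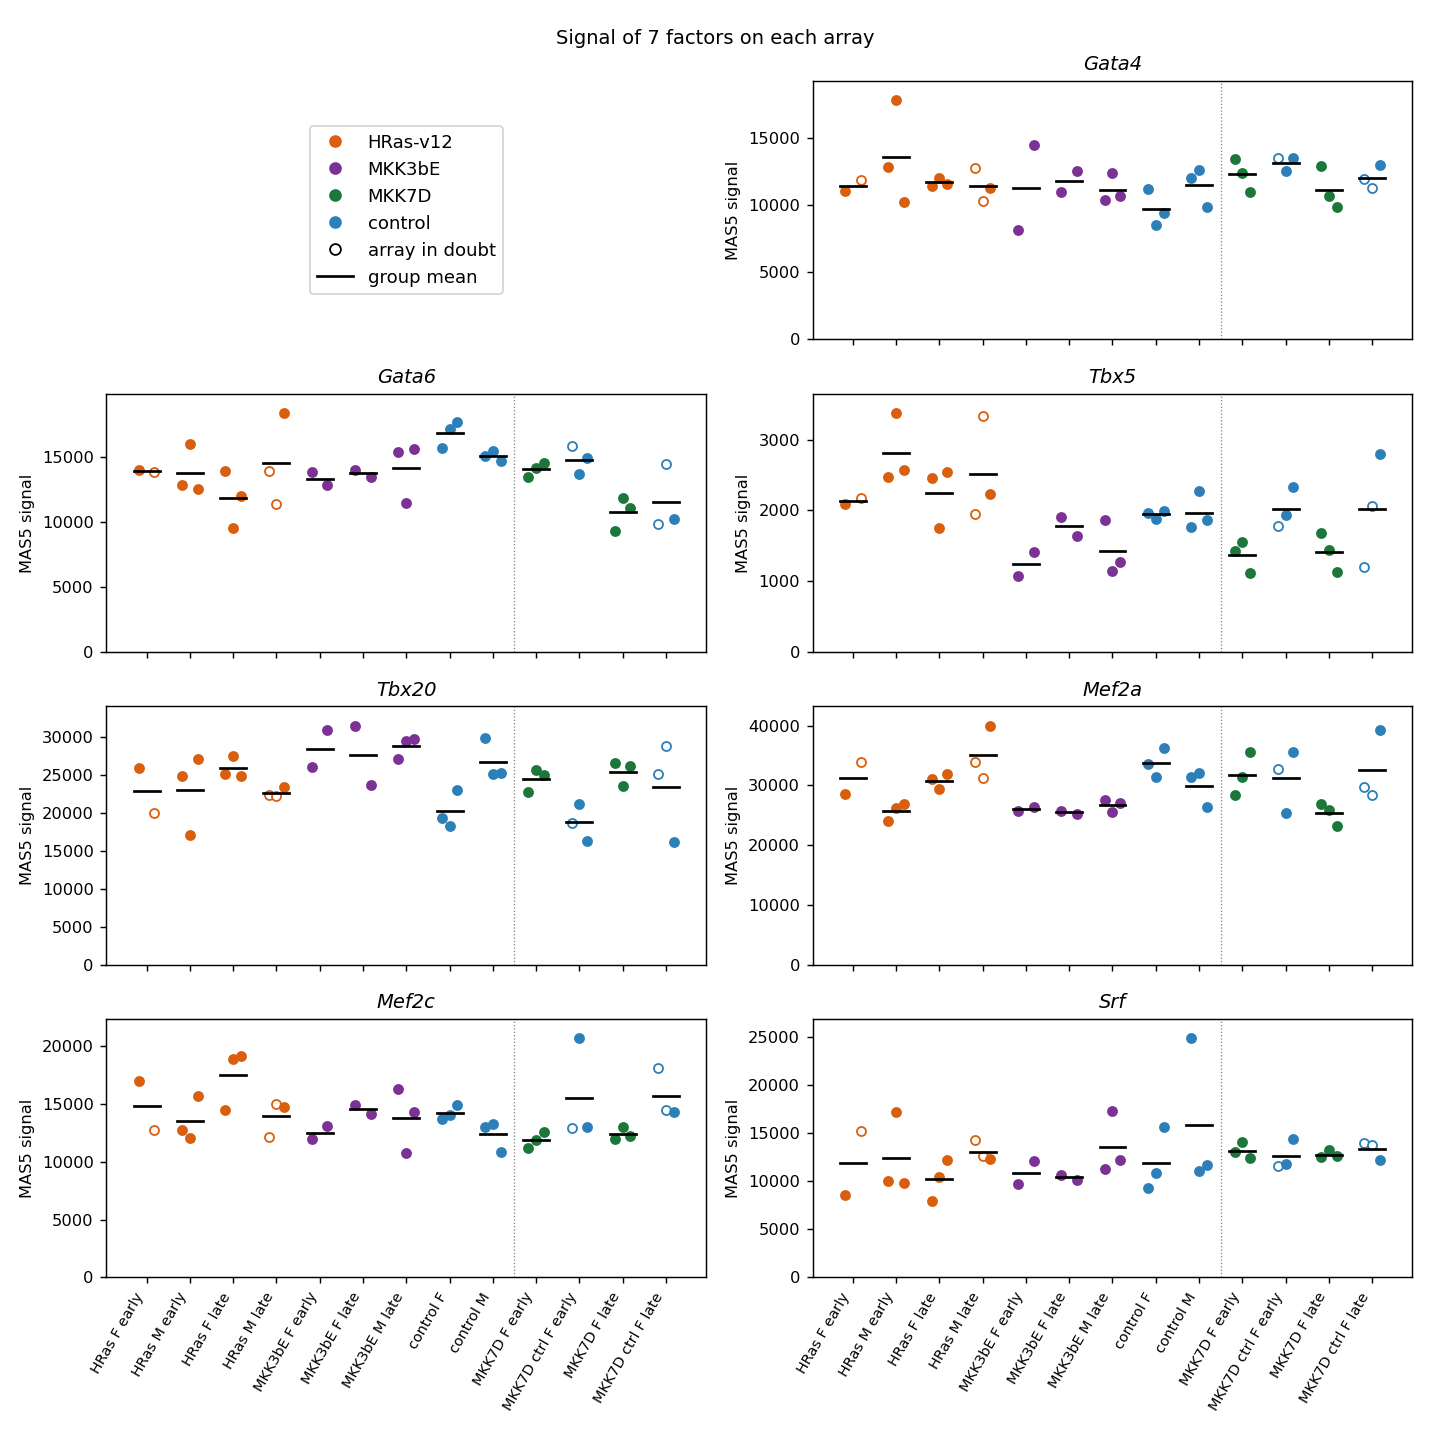
Signal of the other 7 factors on each array, by group, drawn as in the plot of Hand2, Mef2d and Nkx2-5. Groups overlap for most factors; the early MKK3bE points of Tbx5, at 1080 and 1408, lie below its 3 control females, and the late MKK7D points of Mef2a, at 23289 to 26818, below its late controls.

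Hand2, which in the mouse embryo is needed for the right ventricle, was lower in HRas-v12 hearts at both times. Its signal in early HRas-v12 hearts was 7088 and 11323 in females and 6094, 9952 and 5313 in males. In late HRas-v12 hearts it was lowest at 6601, had a median of 8405 and was highest at 11707, and in the shared controls it was lowest at 9803, had a median of 12167 and was highest at 18410. All 5 early and all 6 late arrays lay below the mean of their sex-matched controls, while the ranges of HRas-v12 and control arrays overlapped. The fall was 1.60-fold early (log2 change -0.68, SE 0.16, 95% interval -1.0 to -0.36, limma adjusted p = 0.00177) and 1.45-fold late (-0.54, SE 0.15, 95% interval -0.84 to -0.23, adjusted p = 0.0277).

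The early fall of Hand2 was called in 18 of 18 alternative fits (log2 change -0.85 to -0.51, adjusted p from 0.000298 to 0.0497). It was -0.51 without female early replicate 1 (0.0497) and -0.85 without female early replicate 3, the array with little Esr1 (0.000374). The late fall was called in 12 of 19 alternative fits (adjusted p from 0.0176 to 0.236). It was lost without control male replicate 1 (-0.47, 0.0711), control female replicate 4 (-0.42, 0.0716), female late replicate 3 (-0.53, 0.0714) or male late replicate 3 (-0.48, 0.0978), and without the 6 doubtful arrays (-0.50, 0.167).

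The second Hand2 probe set did not pass at either time, at -0.36 in early (SE 0.19, limma adjusted p = 0.168) and -0.02 in late HRas-v12 hearts (SE 0.18, 0.954), and with the mean of both the late change was -0.28 (0.236). The third Hand2 probe set lay below the filter, with a median signal of 438. In MKK3bE hearts Hand2 had signals of 15918 and 15003 early, and 12118 and 10983 in females and 13778, 12734 and 16462 in males late, all within the control range of 9803 to 18410. Its changes there were 0.23 early (adjusted p = 0.598) and 0.03 late (0.941). In MKK7D hearts the Hand2 change was -0.16 early (adjusted p = 0.836) and -0.19 late (0.999), and -0.05 and -0.24 without the doubtful arrays (0.961 and 0.783). The 3 late MKK7D arrays, at 7959 to 8183, lay below their late controls, at 8578 to 9599, of which 2 are doubtful.

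Mef2d, a MEF2 factor that in mice takes part in stress-driven remodelling of the adult heart, was lower in early HRas-v12 hearts. Its signal was 8244 and 17839 in females and 6812, 15439 and 8150 in males, against 17342, 18032 and 19761 in control females and 15110, 16125 and 12302 in control males. Female replicate 1 and male replicates 1 and 3 lay below every control array, whereas female replicate 3 and male replicate 2 lay within the control range of their sex. The fall was 1.51-fold (log2 change -0.60, SE 0.18, 95% interval -0.97 to -0.23, limma adjusted p = 0.0119). It was lost without female early replicate 1 (-0.32, 0.249) and was -0.88 without female early replicate 3 (0.000468) and without the 6 doubtful arrays (0.000187). Over 18 alternative fits it was called in 15, with adjusted p from 0.000187 to 0.249. It was also lost with the mean of its probe sets (-0.32, 0.0678) and with only the groups compared (-0.60, 0.0723).

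In late HRas-v12 hearts Mef2d ran from 10191 through a median of 12000 to 19573, and 5 of 6 arrays lay below the mean of their sex-matched controls (log2 change -0.37, 95% interval -0.72 to -0.02, limma adjusted p = 0.151). The highest was male late replicate 4, without which the change was -0.50 (0.0379). Without the 6 doubtful arrays it was -0.11 (0.812), and over 19 alternative fits it passed in 1. In early HRas-v12 hearts the second Mef2d probe set was also lower (-0.48, SE 0.18, adjusted p = 0.0494), while the third stood at 0.12 (SE 0.18, 0.656). These were -0.65 (0.0234) and 0.17 (0.435) without the doubtful arrays. In MKK3bE hearts Mef2d differed from control by -0.18 early and -0.24 late, and in MKK7D hearts by 0.14 early and -0.03 late, with no call. The MKK7D values were 0.09 and -0.11 without the doubtful arrays.

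Mef2a and Mef2c, MEF2 factors whose proteins are substrates of p38, passed no test with their brightest probe sets. All 5 late MKK3bE arrays of Mef2a, at 25307 to 27590, lay below the mean of their sex-matched controls, whose range was 26469 to 36212 (log2 change -0.28, 95% interval -0.48 to -0.08, limma adjusted p = 0.0609). Both early MKK3bE arrays, at 25660 and 26369, lay below the control females at 31402 to 36212 (-0.37, 95% interval -0.67 to -0.07, adjusted p = 0.12). Without the 6 doubtful arrays these changes passed, at -0.28 (0.0185) and -0.37 (0.0439). No array of these groups was left out, so that fit again differed in the shared spread and the adjustment over all genes. The late change was called in 3 of 18 alternative fits and the early one in 1 of 12. The late one also passed with only the groups compared (-0.28, 0.0255) and without control male replicate 5 (-0.33, 0.0434). In late MKK7D hearts Mef2a was 23289 to 26818, against 28417 to 39353 in the late controls (-0.35, 95% interval -0.61 to -0.08, adjusted p = 0.887). Without the doubtful arrays, which left 1 late control, it was -0.64 (0.0251).

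In HRas-v12 hearts the probe sets of Mef2a did not run together. The brightest stood at -0.16 early and 0.05 late, and at -0.23 (adjusted p = 0.0628) and 0.15 without the doubtful arrays. Of the 5 further probe sets, 2 were lower early, at -0.31 (SE 0.11, limma adjusted p = 0.0336) and -0.42 (SE 0.11, 0.00582), and another was higher late, at 0.91 (SE 0.22, 0.0159). The lower pair stood at -0.40 (0.00575) and -0.55 (0.000358) without the doubtful arrays, and the late one no longer passed (0.87, 0.144).

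Mef2c stood at 0.09 early and 0.23 late in HRas-v12 hearts (late 95% interval -0.01 to 0.47, limma adjusted p = 0.194), and at 0.19 and 0.27 without the doubtful arrays. Of its 4 further probe sets 1 was higher late, at 0.68 (SE 0.18, 0.0224). That probe set passed early (0.66, 0.0155) and not late (0.73, 0.0858) without the doubtful arrays. In MKK7D hearts Mef2c signals of 11177 to 12572 early and 11911 to 13024 late lay below those of the controls, at 12885 to 20636 early and 14318 to 18054 late. Those changes of -0.35 and -0.33 did not pass (adjusted p = 0.453 and 0.995), and without the doubtful arrays they were -0.46 (0.241) and -0.21 (0.731).

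**Figure D4:**
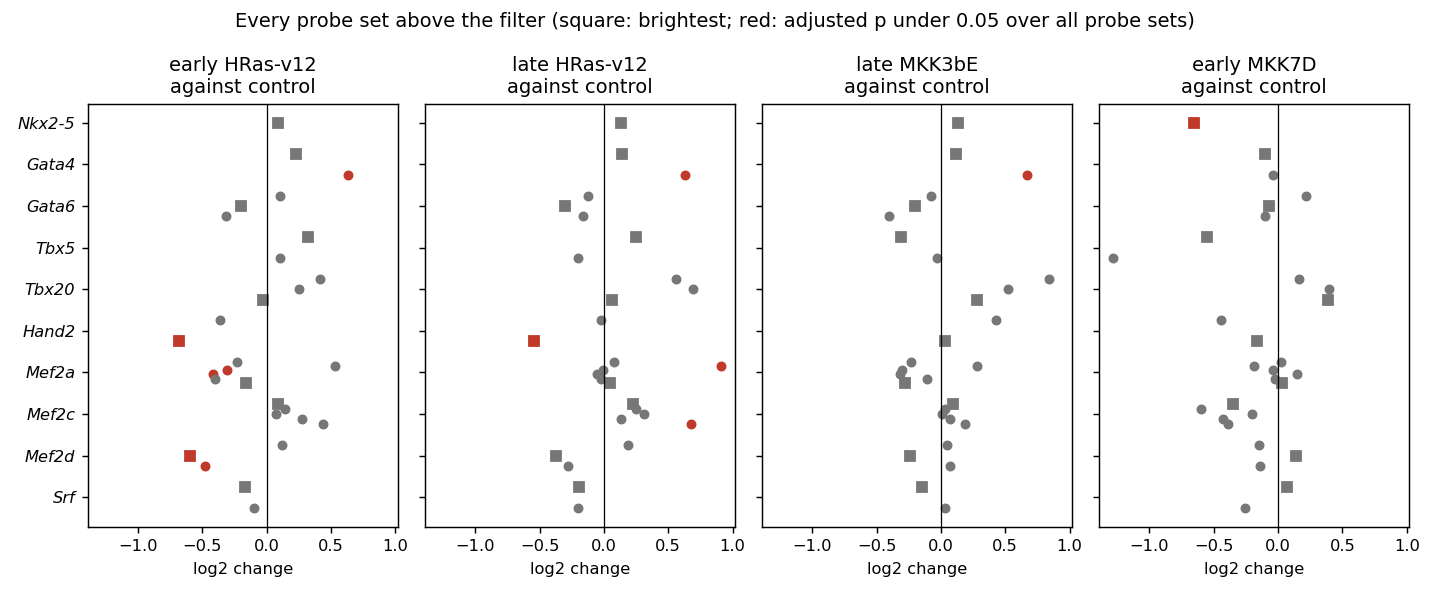
Log2 change of every probe set above the filter for each factor in 4 comparisons. Squares are the brightest probe set of a gene, and red marks an adjusted p under 0.05 over all probe sets. The second Gata4 probe set stands at 0.63, 0.63 and 0.67 in the first 3 panels, while the brightest stands at 0.23, 0.14 and 0.12.

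Srf, the factor of CArG boxes in muscle and growth-response genes, did not change detectably. Its log2 change lay between -0.19 and 0.07 in the 6 comparisons, with 95% intervals that reached from -0.69 to 0.59 (limma adjusted p from 0.506 to 0.999). It was -0.38 in early HRas-v12 hearts (0.185) and -0.24 in late ones (0.673) without the doubtful arrays. In the shared controls Srf ran from 9264 to 24842, the top value being a control male. In early HRas-v12 hearts it averaged 12162 ± 3809 (SD, n = 5) against 13889 ± 5775 in those controls (SD, n = 6). The brightest Srf probe set is of a kind that can match several transcripts, and the second changed by at most 0.26 in size in any of the 6 comparisons.

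The 95% intervals of the factors that missed the threshold show how large a change these arrays could still hold for the brightest probe set, with all 36 arrays. The widest bounds of the 8 factors not called in early HRas-v12 hearts were -0.56 and 0.69 on the log2 scale, and of the 9 in late HRas-v12 hearts -0.72 and 0.60. They were -1.20 and 0.89 in early MKK3bE hearts, -0.68 and 0.54 in late MKK3bE hearts, -1.05 and 0.74 in early MKK7D hearts and -0.94 and 0.51 in late MKK7D hearts. Estimates from other probe sets or fewer arrays went beyond them: without the doubtful arrays the late MKK7D change of Tbx5 was -0.99 and that of Tbx20 0.65. Further probe sets of Mef2a (0.91), Tbx20 (0.69), Mef2c (0.68) and Gata4 (0.63) stood above 0.60 in late HRas-v12 hearts.

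Between times, lines and sexes few differences passed. The late against the early HRas-v12 hearts differed in none of the 10 factors, where 11.6% of all genes were called (limma, 1 factor at an unadjusted p under 0.05). Hand2 differed there by 0.15 (95% interval -0.18 to 0.47) and Mef2d by 0.23 (-0.14 to 0.60, adjusted p = 0.448), and the Mef2d difference moved with single arrays. It was 0.76 without the 6 doubtful arrays (0.00539), 0.51 without HRas-v12 female early replicate 3 (0.0524) and -0.05 without HRas-v12 female early replicate 1 (0.929). The Hand2 difference was 0.35 without the doubtful arrays (0.222), and that of Mef2a, 0.21 with all arrays (0.162), was 0.37 (0.0162). The late against the early MKK3bE females also differed in none (0.00792% of all genes called, no factor at an unadjusted p under 0.05). Nkx2-5 averaged 7610 in early and 8892 in late MKK7D hearts, and 11943 in the early and 7616 in the late controls, 2 of them doubtful. Its MKK7D difference from control was thus higher late than early by 0.87 (95% interval 0.52 to 1.23). This missed the threshold over all genes (limma adjusted p = 0.0656, where 0.0158% of all genes were called). It was 0.74 without the doubtful arrays (0.445), and its adjusted p over 19 alternative fits ran from 0.0373 to 0.445.

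MKK3bE hearts had more Hand2 than HRas-v12 hearts at the late time. The signals were 12118 and 10983 in females and 13778, 12734 and 16462 in males of the MKK3bE line, against 6601, 7073 and 7837 in females and 11707, 8973 and 11060 in males of the HRas-v12 line. Within each sex the MKK3bE arrays all lay above the HRas-v12 arrays. The difference was 1.48-fold (log2 0.56, SE 0.16, 95% interval 0.24 to 0.88, limma adjusted p = 0.0386), and Hand2 was the 1 factor of 10 called, against 3.95% of all genes called and 2.04% called higher. It was called in 9 of 18 alternative fits (0.51 to 0.60, adjusted p from 0.0366 to 0.136) and not without the 6 doubtful arrays (0.53, 0.0931). At the early time the difference in females was 0.78 (95% interval 0.26 to 1.31, adjusted p = 0.127, with 1.81% of all genes called), from 2 HRas-v12 arrays. It was 1.12 without HRas-v12 female early replicate 3, the doubtful one (0.0453), and 0.45 without replicate 1 (0.45). MKK7D was not set against the other lines by a test, since its controls were its own.

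No factor was called for a difference between males and females in the HRas-v12 effect early (1.1% of all genes called) or late (0%), or in the MKK3bE effect late (0.00792%). At an unadjusted p under 0.05 there were 1, 2 and 0 factors in these 3 comparisons in limma. The late HRas-v12 effect on Hand2 was 0.69 higher in males than in females (95% interval 0.08 to 1.30, adjusted p = 0.579). Without the doubtful arrays, which left 1 of the 3 late males, the difference was 0.76 (0.236).

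Lists of other genes that work with these factors were counted in the same comparisons. Of 22 other heart development factors tested from a list of 27, 7 were lower and 1 higher in early HRas-v12 hearts (median log2 change -0.21, against -0.04 for all genes), where 33.8% of all genes were called and 18.7% called lower. Esrrg, a nuclear receptor of mitochondrial genes, was 2.28-fold lower (-1.19, SE 0.21, limma adjusted p = 0.000178). Irx4, which marks ventricular muscle, was 1.94-fold lower (-0.95, SE 0.24, 0.00363). Hey1, a Notch target, stood at -0.84 (0.000493) and Sox4 at -0.93 (0.00193).

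In late HRas-v12 hearts 2 were higher, Sox4 at 0.66 (limma adjusted p = 0.0403) and Irx3 at 0.44 (0.0452), and Hey1 was lower at -0.54 (0.0327). Of all genes, 9.52% were called there and 4.66% called lower, with 6.26% called in early and 10.4% in late MKK3bE hearts. In early MKK3bE hearts Prrx1, a factor of mesenchymal cells, was 2.49-fold higher (1.32, adjusted p = 0.00996). In late MKK3bE hearts Tcf21, a factor of fibroblasts, was higher at 0.74 (0.014) and Sox9 at 1.37 (0.0466), while Hey1 was lower at -0.54 (0.0369) and Esrrg at -0.65 (0.0443). None was called in MKK7D hearts at either time with all arrays, where 0.135% of all genes were called early and 0% late. Without the 6 doubtful arrays Sox9 was higher early (1.59, 0.0278), and Sox9 (2.48, 0.00323) and Prrx1 (1.03, 0.0289) were higher late; these genes were chosen after their values were seen.

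Of 25 cofactors that bind these factors or modify chromatin with them, 8 were lower and none higher in early HRas-v12 hearts (median -0.29, against -0.04 for all genes), beside the same 33.8% of all genes called and 18.7% called lower. Fhl2, a LIM protein of the sarcomere and nucleus, was 2.32-fold lower (-1.21, SE 0.17, limma adjusted p = 3.01e-05). Hdac9, a repressor of MEF2, was 2.02-fold lower (-1.01, SE 0.19, 0.000327). Smarcd3, the subunit that brings chromatin remodelling complexes to heart genes, stood at -0.58 (0.00101), and Jarid2 at -0.56 (0.00171).

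Late, 3 of the 25 cofactors were higher and 3 lower in HRas-v12 hearts, where 9.52% of all genes were called and 4.66% called lower. Among them were Smyd1 at -0.53 (limma adjusted p = 0.0167), Csrp3 at -0.54 (0.0204), Wwtr1 at 0.47 (0.0234) and Elk1 at 0.70 (0.0277). In MKK3bE hearts 6.26% of all genes were called early and 10.4% late. Ankrd1, a stress-induced muscle protein, was 2.70-fold higher in early MKK3bE hearts (1.43, SE 0.33, adjusted p = 0.011) and 2.22-fold higher in late ones (1.15, SE 0.22, 0.00182). Hopx, a small homeodomain protein that holds back SRF, was 2.53-fold lower in late MKK3bE hearts (-1.34, SE 0.39, 0.0289), with Hdac9 at -0.68 (0.0233) and Jarid2 at -0.43 (0.0324). None was called in MKK7D hearts, with or without the doubtful arrays.

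Of 25 known target genes tested from a list of 28, 12 were lower and 5 higher in early HRas-v12 hearts (median -0.30, against -0.04), beside those same shares of all genes. Myl2, the ventricular light chain, was 1.65-fold lower (-0.72, SE 0.12, limma adjusted p = 0.000118). Myh6 was 1.47-fold lower (-0.55, SE 0.10, 0.000221), and Atp2a2, the calcium pump of the sarcoplasmic reticulum, 1.55-fold lower (-0.63, SE 0.12, 0.000385). Vcl, a focal adhesion protein, was 1.59-fold higher (0.67, SE 0.12, 0.000154). Late, 9 were lower and 1 higher in HRas-v12 hearts, where 9.52% of all genes were called and 4.66% called lower. These targets included Tnnc1 at -0.40 (0.0198), Actc1 at -0.40 (0.0204), Myh6 at -0.36 (0.024) and the immediate early gene Egr1 at 1.68 (0.0258).

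In MKK3bE hearts 1 target was higher early, Xirp1 at 0.90 (limma adjusted p = 0.00939), and late 2 were higher, Xirp1 at 0.47 (0.026) and Nppa at 1.70 (0.0466), and 2 lower, Acta2 at -1.03 (0.0361) and Popdc2 at -0.36 (0.0444). The share of all genes called in that line was 6.26% early and 10.4% late. No target was called with all arrays in MKK7D hearts, including the early ones, in which Nkx2-5 fell. Of all genes, 0.135% were called early and 0% late there. Without the 6 doubtful arrays Xirp1 was higher early (0.73, 0.0247), and Acta1 (2.24, 0.00284) and Xirp1 (1.11, 0.00346) were higher late, likewise chosen after their values were seen. Without the 6 doubtful arrays the early HRas-v12 counts were 9 lower and 3 higher for the development factors, 11 lower and 2 higher for the cofactors and 12 lower and 7 higher for the targets. Of the genes called with all arrays, 8 of 8 development factors, 8 of 8 cofactors and 16 of 17 targets were called the same way in that fit. In late HRas-v12 hearts that fit called 0 development factors, 0 cofactors and 1 target, lower, with 1 late male left and 157 genes called in all. In MKK3bE hearts it called 6 targets higher and 5 lower early, and 6 higher and 7 lower late. Over all 12626 genes it called 2074 there early and 2581 late, against 790 and 1319 with all arrays. In early HRas-v12 hearts it also called more of all genes than the 33.8% called with all arrays.

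**Figure D5:**
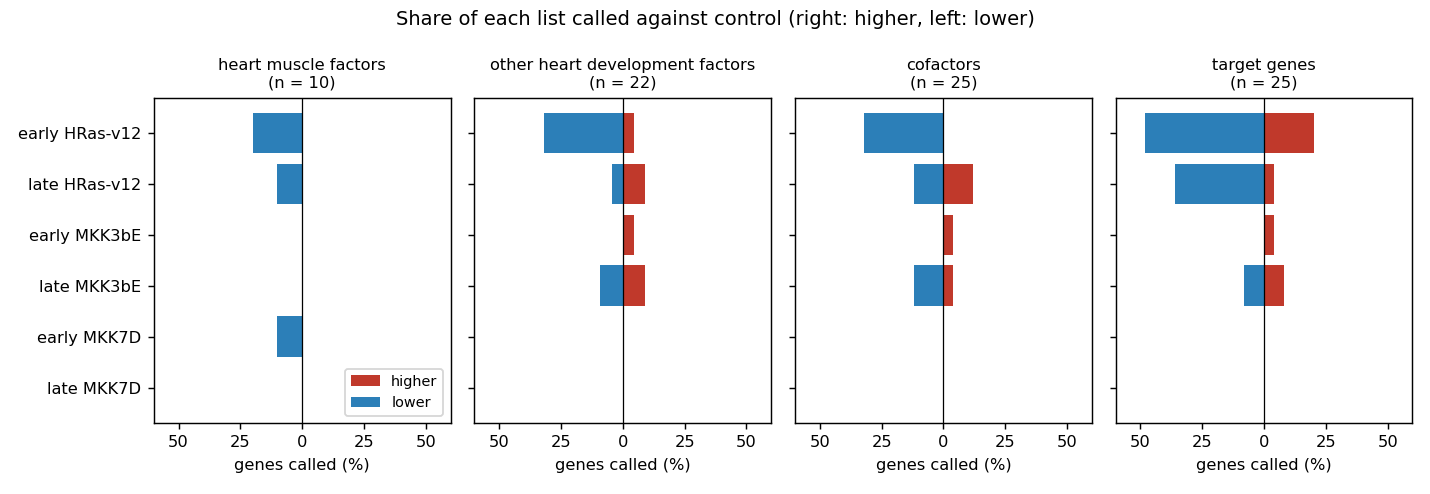
Share of the genes tested in each list that passed the test in each comparison against control, higher to the right and lower to the left. In early HRas-v12 hearts 2 of the 10 factors, 7 of 22 other development factors, 8 of 25 cofactors and 12 of 25 target genes were lower.

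Markers of several cell types moved in the same HRas-v12 hearts in which Hand2 and Mef2d fell. All 10 heart muscle cell markers were lower early, also without the 6 doubtful arrays, and 7 of 10 were lower late, with 0 of 10 in that fit. Their summed signal was 905570 to 1335883 in early HRas-v12 females and 918424 to 1101309 in males, against 1546845 to 1835116 in control females and 1397060 to 1540298 in control males. Early, 5 of 6 endothelial markers were lower, and 5 of 8 fibroblast and 5 of 7 macrophage markers were higher. Of all genes, 33.8% were called early (18.7% lower) and 9.52% late (4.66% lower) in HRas-v12 hearts. The summed fibroblast signal was 171275 to 443186 in early HRas-v12 females and 438815 to 552228 in males, against 169726 to 237546 in control females and 199310 to 234987 in control males. In MKK3bE hearts 4 of 8 fibroblast markers were higher at each time, where 6.26% of all genes were called early and 10.4% late. No heart muscle cell marker was called there, although 3 of 10 were lower at each time without the 6 doubtful arrays. The fit without them called 2074 of all 12626 genes early and 2581 late in this line, against 790 and 1319 with all arrays. In MKK7D hearts no marker of these 4 cell types was called with all arrays, where 0.135% of all genes were called early and 0% late. Without the doubtful arrays, with 1 late control left, the fibroblast markers Postn (2.34, 0.00674), Col1a1 (2.33, 0.0134) and Col1a2 (1.60, 0.0224) were higher in late MKK7D hearts, 3 of 8. In late MKK7D hearts that fit also called more of all genes than the 0% called with all arrays. The part of these marker shifts in the changes of the factors was not tested. Skeletal muscle markers summed to at most 3571 on any array.

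For the 3 factors that changed against control, the genes with the closest profile over the 13 group means were looked up, as a description. For Nkx2-5 they were Ccdc184 and Serhl, whose centred log2 means differed from it by a root mean square of 0.143 and 0.146, beside a spread of Nkx2-5 itself of 0.27. For Hand2 they were Usp24 (0.148) and S100a1 (0.167), beside its own spread of 0.349. For Mef2d they were Dennd5b (0.097) and Epc1 (0.105), beside 0.278.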

How the data were processed

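RNA of 36 mouse left ventricles was measured on Affymetrix mouse arrays. The deposited values are probe set intensities (signals) made by the authors with MAS5, per the submitters' processing notes. For MAS5 a version was not given in the sources used here. Each array's mean after leaving out 2% of probe sets at each end was 2499.2 to 2499.4, so the arrays had been scaled alike before deposit. Detection calls were not used here.

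Values were taken as log2(signal + 32). Of 45101 probe sets, 34958 had 1 gene symbol in the platform annotation. The upper 60% by mean, 27022 probe sets, were kept, and the brightest per gene gave 12626 genes. Fold changes are on this scale and understate changes of dim genes. A model of 13 group means over all 36 arrays was fitted in limma 3.58.1 (R 4.3.3), using eBayes with an intensity trend, for 14 comparisons. Changes were averaged over the sexes with equal weight where a group held both. P-values were Benjamini-Hochberg adjusted over all genes, and every adjusted p here comes from limma. The fit was tested on simulated data. The number of arrays limits the precision.

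All 10 factors are named in every comparison with control. From each further list up to 4 called genes with the smallest adjusted p are named, and for each called factor the 2 genes with the closest group means. The factors and lists were chosen with earlier results of these data known. Same-numbered arrays of a sex did not pair: the correlation of their deviations ran from -0.343 to 0.125 over 23 pairs and exceeded 0.1 in 4. Alternatives were quantile normalization, a pseudocount of 1, no filter, the mean of a gene's probe sets, only the groups compared, a replicate block, leaving out the 6 doubtful arrays and leaving out each array in turn. The test of each further probe set, with and without the doubtful arrays, and the shared calls of the lists were added after seeing the data.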

Additional observations from a re-analysis of the deposited data

Results flagged for a closer look

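Within the 5 late MKK3bE hearts, Mef2d was highest on the array of male replicate 2, at 15671, whose gap to the next array was 0.73 of the whole range. Chance would mark about 1 in 20 such groups, and 40 were examined.

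The late Hand2 difference of MKK3bE against HRas-v12 hearts (0.56 on the log2 scale) passed the test of the difference itself, as described above. For 40 further pairings of a factor with 2 lines, the arrays were set against their control means. In 4 of these pairings every array of the first line deviated to the same side and every array of the second to the opposite side. These differences were not tested, and how often all genes do the same was not counted. The early MKK3bE side held only 2 arrays. The early HRas-v12 arrays and the early MKK7D controls each hold 1 doubtful array. For Tbx5 the early MKK7D arrays deviated by -0.82 to -0.36 and the early HRas-v12 arrays by 0.10 to 0.78, a difference of -0.91 between the changes. For Nkx2-5 the early MKK7D arrays deviated by -0.85 to -0.51 and the early MKK3bE arrays by 0.26 to 0.43, a difference of -0.99. For Hand2 the same 2 groups gave -0.37 to -0.03 and 0.18 to 0.27, a difference of -0.38, and for Mef2d 0.01 to 0.37 and -0.27 to -0.08, a difference of 0.31.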

How the results depend on the processing

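No call of a factor reversed. Quantile normalization, a pseudocount of 1, no filter on dim probe sets and the replicate block left each of the 60 changes against control on its side of the threshold. The replicate block kept 2 factors called in early and 1 in late HRas-v12 hearts and 1 in early MKK7D hearts (block correlation -0.0327). The number of factors called moved as follows. Fitting only the groups compared gave 1 in early HRas-v12 hearts, 0 in late HRas-v12 hearts and 1 in late MKK3bE hearts. The mean of a gene's probe sets gave 0 in late HRas-v12 hearts, 1 for late against early HRas-v12 and 0 for MKK3bE against HRas-v12 late, and quantile normalization gave 1 and 2 for these 2 contrasts. Leaving out the 6 doubtful arrays gave 0 in late HRas-v12, 2 in early MKK3bE, 1 in late MKK3bE and 1 in late MKK7D hearts, 2 for late against early HRas-v12 and 1 for MKK3bE against HRas-v12 early. That fit also called 1 factor for MKK3bE against HRas-v12 late, which was Mef2a (-0.43, limma adjusted p = 0.011) in place of Hand2. Leaving out each array in turn gave 1 to 2 in early and 0 to 3 in late HRas-v12 hearts, and 0 to 1 in late MKK3bE hearts, in early MKK7D hearts, for the MKK7D change between times and for MKK3bE against HRas-v12 at either time. Over all genes, the counts without the 6 arrays were 5335 instead of 4267 in early HRas-v12, 157 instead of 1202 in late HRas-v12, 2074 instead of 790 in early MKK3bE, 2581 instead of 1319 in late MKK3bE, 123 instead of 17 in early MKK7D and 428 instead of 0 in late MKK7D hearts. With only the groups compared they were 0 in late HRas-v12, 1288 in early MKK3bE, 2262 in late MKK3bE and 372 in early MKK7D hearts, and with the mean of probe sets 53 in early MKK7D hearts. Leaving out single arrays gave 1571 to 4864 in early HRas-v12 and 132 to 2507 in late HRas-v12 hearts, 132 to 577 in early and 541 to 1179 in late MKK3bE hearts, and 3 to 102 in early MKK7D hearts. The cause of these shifts was not tested. Groups of 2 or 3 arrays and signals without detection calls limit what could be detected.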
